A study of Danio rerio with 6 samples.

Results

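The eicosanoid synthesis genes described here are alox5a, alox5ap, lta4h, alox12, ptgs1, ptgs2a, ptgs2b and ptges, which act after arachidonic acid has been released from membranes. They were taken by name from the rows with an Ensembl identifier, and all 8 were found among 32520 Ensembl genes and 59330 rows in all. Polyadenylated RNA was sequenced from the GFP-positive cells that Tg(mpx:eGFP) zebrafish larvae carry at 48 hours post-fertilisation (day 2), in which the mpx promoter drives the green fluorescent protein and the labels call the cells neutrophils. The groups were 3 libraries of larvae treated with a morpholino against znf711, labelled as a znf711 knockdown, and 3 libraries labelled as wild type and control. A morpholino is an antisense oligonucleotide that blocks translation or splicing of its target for a limited time. The series' design text names a znf711 mutant line in place of the morpholino, and the sample labels were followed. The treatment of the control larvae and the number of larvae per library were not given in the sources used here. Where the labels' biological replicates do not stand for separate clutches or sorts, the p-values measure only the spread between these samples.

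Eicosanoids are short-lived lipid signals made from arachidonic acid along branches that compete for it. In the leukotriene branch a lipoxygenase, helped by a small membrane protein that presents the substrate, makes leukotriene A4, and a hydrolase turns this into leukotriene B4, a strong attractant of neutrophils. In the prostanoid branch a cyclo-oxygenase makes prostaglandin H2, from which terminal synthases make prostaglandin E2 and the other prostanoids. In zebrafish, leukotriene B4 is known for its part in neutrophil recruitment and prostaglandin E2 for its part in the control of blood stem cells.

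Total counts were 1629804, 12093109 and 9550796 in morpholino replicates 1 to 3, against 7181804, 9311439 and 7635673 in control replicates 1 to 3. Morpholino replicate 1 stood apart: 42.5% of the 16637 rows tested had no count in it, against 2.25% to 9.75% in the other 5 libraries. The limit set by a count of 0, taken as 3 counts, is 1.61 CPM (read counts scaled to a common library size by TMM) in that library and 0.281 to 0.490 CPM in the others, for counting error alone. The sorted reporter's gene mpx had 559, 2731 and 5068 CPM in morpholino replicates 1 to 3, against 520, 2926 and 2703 CPM in control replicates 1 to 3, and 12 listed neutrophil markers summed to 3296 to 31852 CPM against 2652 to 21484 CPM. The named row of the neutrophil marker lyz had 0 to 8 counts in every library, while mpx and npsn were high. Markers of other blood cells had counts too. The macrophage list summed to 562 to 2473 CPM in morpholino libraries against 580 to 2386 CPM in controls. Of this, a single MFAP4 row gave 318 to 1474 CPM against 301 to 1344 CPM. Over all libraries mpeg1.1 was at 1.07 to 29.9 CPM, c1qb at 0 to 10.8 CPM, and c1qa, c1qc and ccr2 at 0 to 2.95 CPM. The listed marco reached 286 CPM and csf1ra 143 CPM. The row named mfap4 was at 74.0 to 529 CPM over all libraries, lgals3bpb at 84.7 to 204 CPM and ctsl.1 at 19.3 to 151 CPM. The thrombocyte list summed to 253 to 711 CPM in morpholino libraries against 445 to 791 CPM in controls. Of the thrombocyte sum, f13a1b alone gave 167 to 524 CPM in morpholino libraries and 204 to 486 CPM in controls. The listed itga2b, mpl, gp9 and gp1bb were each at 0 to 30.1 CPM over all libraries. Erythroid markers summed to 2115 to 16899 CPM in morpholino libraries and 4032 to 13202 CPM in controls. Most of this was the globin gene hbae3, at 1471 to 14342 CPM and 2922 to 10530 CPM. Over all libraries slc4a1a was at 141 to 658 CPM, alas2 at 0 to 0.537 CPM and gata1a at 0 to 5.81 CPM. Neural markers summed to 1771 to 3066 CPM in morpholino libraries and 1486 to 2509 CPM in controls. Of the neural sum, the single gene marcksl1b gave 1053 to 2700 CPM in morpholino libraries and 1206 to 1787 CPM in controls. Over all libraries tubb5 was at 78.0 to 463 CPM, elavl3 at 52.6 to 354 CPM, elavl4 at 18.6 to 208 CPM and neurod1 at 17.7 to 139 CPM. Each of these was highest in replicate 1 of each group, which gfap, sox2, snap25a and marcksl1b were not in both groups. The groups did not overlap in the sums of 3 lists. They did not overlap in 7.44% of all rows tested, a rate for single rows and not for sums. The lists were chosen with earlier results of these data known, so the sums are given as a description only. Connective tissue was at 427 to 613 CPM against 813 to 1145 CPM and endothelium at 104 to 281 CPM against 297 to 387 CPM. Muscle was at 129 to 287 CPM against 86.8 to 122 CPM. Epidermis overlapped, at 217 to 314 CPM against 102 to 230 CPM. Rows within these lists differed. In muscle, myhz2 and ckma did not overlap. The counts of ckma were only 6, 6 and 10 in morpholino replicates 1 to 3, against 2, 2 and 1 in controls. The named row of mylpfa had no count, and the other listed muscle genes overlapped. Among them actc1b was at 35.1 to 158 CPM against 4.06 to 44.7 CPM and tnnt3b at 40.9 to 75.8 CPM against 16.9 to 73.8 CPM. In the other direction, acta1b was at 2.68 to 11.0 CPM against 6.76 to 29.9 CPM. In endothelium, tie1 and flt4 did not overlap, and the other listed genes did. In connective tissue, prrx1a, col1a1a and postnb overlapped, and the other listed genes did not. The gene fli1a is in both the thrombocyte and the endothelium list. Most of the epidermis sum was krt8, at 164 to 230 CPM against 76.7 to 169 CPM, and the named rows of epcam, krt5 and cldni had no count. The part of these cell types in the members' levels was not tested, and in such bulk samples fewer cells of a type and less RNA per cell cannot be told apart. The targeted gene znf711 had 0.537, 11.2 and 17.7 CPM in the morpholino libraries, against 41.1, 16.5 and 9.79 CPM in controls, so the groups overlapped. Its log2 fold change was -1.18 ± 1.29 (SE, n = 3 each; edgeR adjusted p = 0.9999), and whether the morpholino blocks translation, which need not lower RNA, or splicing was not given in the sources used here.

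At issue was whether the eicosanoid genes differed between znf711 knockdown cells and control cells. No member was called: edgeR's quasi-likelihood test tested 6 of the 8, and 0 of these had an adjusted p under 0.05. The background was 0 of 16637 rows called, or 0%, and the members' count was the same as this background. At an unadjusted p under 0.05 the test found 174 rows, 97 higher and 77 lower, and none of the members. DESeq2 called 12 rows and limma-voom 0, again with no member. In none of the 8 members were the groups free of overlap, where 7.44% of all rows tested had groups that did not overlap. Of the 6 tested members, 2 had a positive and 4 a negative log2 fold change, with a median of -0.32, against a median of -0.12 over all rows and 44.3% of rows positive. The spread behind these values was wide, with a common biological coefficient of variation of 1.09.

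**Figure D1:**
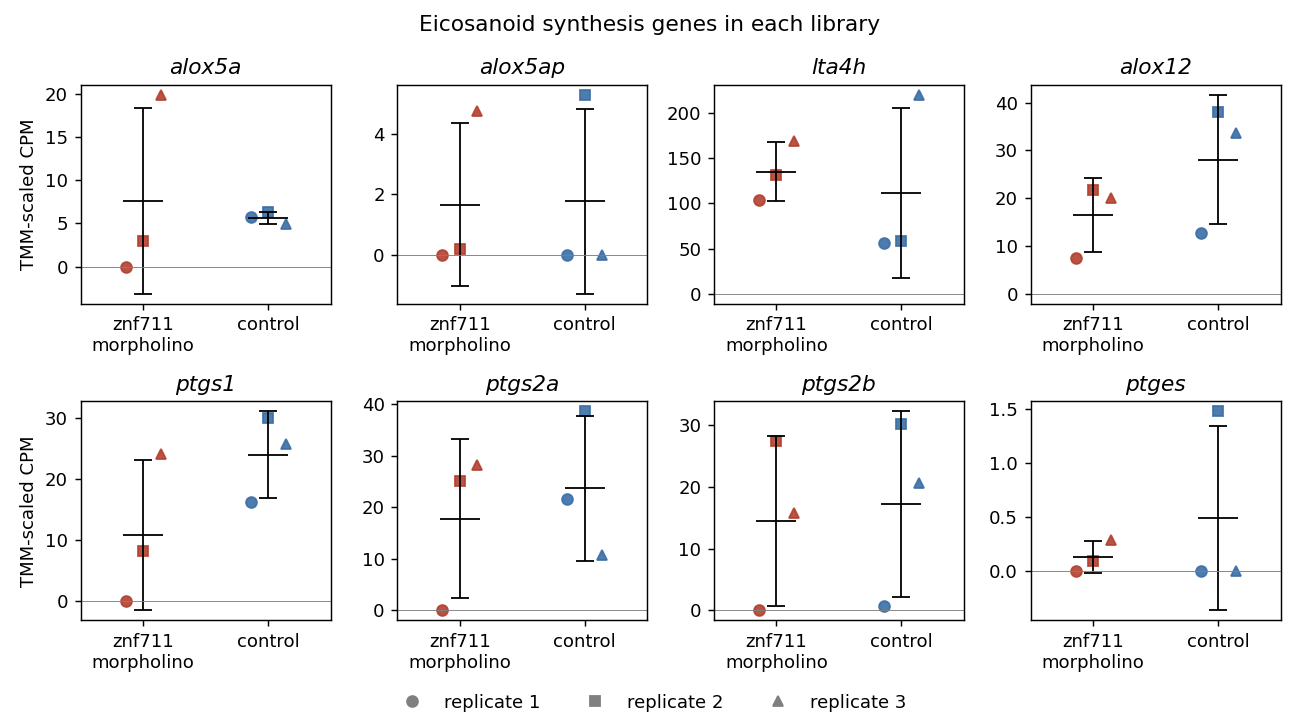
Level of the named row of each of the 8 genes in TMM-scaled CPM (vertical axes, each with its own range) in the znf711 morpholino libraries and the control libraries. Marker shapes give the replicate number, and the horizontal line and bars give the mean ± SD of 3 libraries. In 6 of the panels morpholino replicate 1 is at 0, and the groups overlap in all 8.

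The members were detected unevenly. In morpholino replicates 1 to 3 counts were present on the named rows of 2, 8 and 8 of the 8 members, against 6, 8 and 6 in control replicates 1 to 3. In morpholino replicate 1 only the named rows of lta4h and alox12 had counts. Those of the other 6 members were at 0, beside 42.5% of the 16637 rows tested. Of these 6, alox5ap and ptges were not among the rows tested, and unnamed models at the place of alox5a had 55 counts there. The summed level of the 8 came to 112, 218 and 282 CPM in morpholino libraries and 113, 208 and 316 CPM in controls. In morpholino replicate 1 lta4h alone gave 104 of the 112 CPM, and in control replicate 2 it gave 57.8 of the 208 CPM. Divided by gene length, the named row of lta4h ranked first of the 8 in each of the 6 libraries. Its mean over the 6 libraries was 44.7 ± 23.3 CPM per kb (SD), and the next were ptgs2a at 7.38 ± 4.84, alox12 at 6.19 ± 3.27 and ptgs2b at 6.18 ± 5.09 CPM per kb. These were followed by ptgs1 at 4.08 ± 2.70, alox5a at 2.62 ± 2.73, alox5ap at 1.31 ± 1.98 and ptges at 0.311 ± 0.584 CPM per kb. Below lta4h, neighbours in this order differed by less than 1 SD of the higher gene's library values. The order holds for the named rows only, since unnamed models at the matching place of alox5a, alox5ap and lta4h, described with these genes, held more counts than the named rows and were not included.

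In the leukotriene branch, alox5a codes for the lipoxygenase that makes leukotriene A4. It lies on the minus strand of GRCz11 chromosome 13 at 18128275 to 18174864 (ENSDARG00000057273). Levels were 0, 2.91 and 19.9 CPM in morpholino replicates 1 to 3, against 5.79, 6.27 and 4.90 CPM in control replicates 1 to 3. By this named row the controls lay close together and the morpholino libraries spread to either side of them, with replicate 3 the highest and replicate 1 at 0. The means were 7.60 ± 10.7 CPM in morpholino libraries and 5.65 ± 0.698 CPM in controls (SD, n = 3 each), and the log2 fold change was 0.44 ± 1.77 (SE; edgeR adjusted p = 0.9999). Its 16 alternatives ran from -1.86, when morpholino replicate 3 was left out, to 1.02, and 12 of them were positive.

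alox5ap codes for the membrane protein that presents arachidonic acid to that lipoxygenase. It lies on the plus strand of chromosome 10 at 36458563 to 36463715 (ENSDARG00000054755) and was too low for the edgeR filter. Its row held 0, 2 and 49 counts in morpholino replicates 1 to 3, against 0, 43 and 0 in control replicates 1 to 3. The counts of morpholino replicate 3 and control 2 thus made up nearly all of the row. The difference of mean log2(CPM + 1) was 0.04, and an exact two-sided permutation test gave p = 1, where 3 against 3 cannot go below 0.1.

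lta4h codes for leukotriene A4 hydrolase, which makes leukotriene B4. It lies on the minus strand of chromosome 4 at 7653607 to 7673165 (ENSDARG00000006029). Levels were 104, 132 and 169 CPM in morpholino replicates 1 to 3, against 56.2, 57.8 and 220 CPM in control replicates 1 to 3. Control replicate 3 was above all morpholino libraries, while control replicates 1 and 2 were below all of them. The means were 135 ± 32.6 CPM in morpholino libraries and 111 ± 94.1 CPM in controls (SD, n = 3 each), with a log2 fold change of 0.28 ± 0.57 (SE; edgeR adjusted p = 0.9999). It came to 1.22 without control replicate 3, to -0.047 without control replicate 1 and to -0.059 without control replicate 2.

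For these 3 genes the named row was not the only row at its place in the genome. The tables also have unnamed gene models on alternate scaffolds of GRCz11, which are second versions of a stretch of chromosome, and at the place matching alox5a, alox5ap and lta4h such models carried more counts in total than the named row. They were matched by strand and by place beside a model that matches a neighbouring gene, and their sequences were not compared, so the identity rests on position. At alox5ap the model XLOC_066854 started 19255 bases from the start of the model matching the neighbour uspl1, where the named gene starts 19270 bases from uspl1. That model was larger than the named gene, with a span of 10231 bases against 5153 and a length of 3601 bases against 1304. At alox5a, XLOC_068074 and XLOC_068075 together spanned 46644 bases, against 46590 bases for the named gene, and their lengths were 5862 and 706 bases, against 2528 bases. At lta4h, XLOC_074679 spanned 18662 bases, against 19559 bases, with a length of 2398 bases against 2758 bases.

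The alox5ap model held 0, 748 and 900 counts in morpholino replicates 1 to 3, against 112, 718 and 621 in control replicates 1 to 3. It took 97.1% of the reads of the gene and the model together, a share that holds for alox5ap only if the larger model is that gene. With these reads, a gene at 0 in 2 of the controls by its named row had counts in all 3 controls, and morpholino replicate 1 stayed at 0. The lta4h model held 217, 6206 and 3331 counts in morpholino libraries, against 864, 4130 and 2302 in controls, or 75.2% of the combined reads. The alox5a models together held 55, 249 and 338 counts in morpholino libraries, against 79, 211 and 196 in controls, or 75.5%. The alox5a models thus had counts in morpholino replicate 1, where the named row was at 0.

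**Figure D2:**
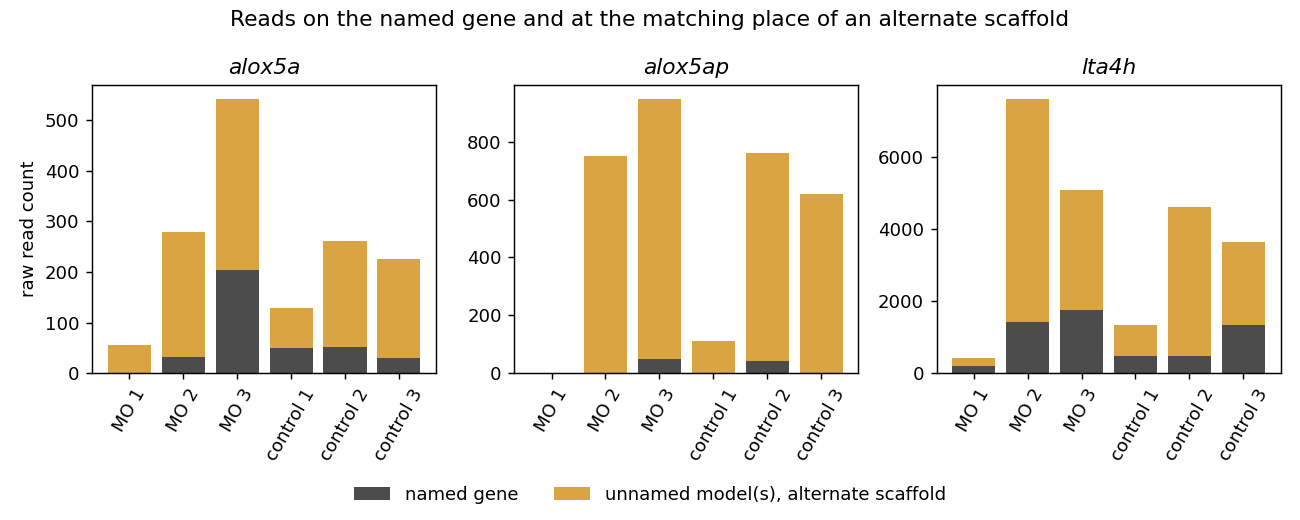
Raw read counts (vertical axis) in the 3 znf711 morpholino (MO) libraries and the 3 control libraries, stacked from the named gene and from the unnamed models at the matching place of an alternate scaffold. For alox5ap the model holds 97.1% of the reads, and for alox5a and lta4h the models hold 75.5% and 75.2%.

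The share of the combined reads on the named row varied from library to library. For lta4h it was 47.2%, 18.5% and 34.3% in morpholino replicates 1 to 3, against 35.5%, 10.2% and 36.9% in control replicates 1 to 3. For alox5a it was 0%, 11.1% and 37.8% in morpholino libraries, against 38.3%, 19.5% and 13.3% in controls. lta4h in control replicate 3 was 3.81 times control replicate 2 by its named row and 1.05 times by the sum. The alox5a level of morpholino replicate 3 was likewise 6.85 times that of morpholino replicate 2 by the named row and 2.01 times by the sum. What set these shares was not tested.

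With the models added, lta4h had 221, 714 and 492 CPM in morpholino replicates 1 to 3, against 158, 566 and 596 CPM in control replicates 1 to 3. The lowest library of each group was then replicate 1, as it was for mpx and for the macrophage and thrombocyte list sums. Summed alox5ap had 0, 70.3 and 92.1 CPM in morpholino libraries, against 13.2, 93.6 and 101 CPM in controls, again lowest in both replicates 1. Summed alox5a had 29.5, 26.2 and 52.7 CPM in morpholino libraries, against 15.1, 32.2 and 36.9 CPM in controls. Its controls were thus no longer close together, and morpholino replicates 1 and 2 lay inside their range. The groups overlapped in all 3 sums, and the log2 fold changes were 0.11 ± 0.54 for lta4h, -0.35 ± 1.41 for alox5ap and 0.37 ± 0.78 for alox5a (SE, n = 3 each; edgeR adjusted p = 0.9998 for each). The SE of alox5a was 0.78 for the sum, against 1.77 for its named row. Each sign changed in at least 1 of the runs that left out a library: without morpholino replicate 1, for example, summed alox5ap was at 0.22. The matching model of ptges, XLOC_075179, had no count in any library, and no alternate scaffold in the tables covered alox12, ptgs1, ptgs2a or ptgs2b.

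alox12 codes for another arachidonate lipoxygenase, a type known from mammalian platelets and epidermis. It lies on the plus strand of chromosome 7 at 26029672 to 26047946 (ENSDARG00000069463), 86 bases from rnaseka on the opposite strand, and whether the counting used strand was not given in the sources used here. Levels were 7.51, 21.7 and 19.99 CPM in morpholino replicates 1 to 3, against 12.6, 38.0 and 33.6 CPM in control replicates 1 to 3. Control replicate 1 was below 2 of the morpholino libraries and the other controls were above all 3. The means were 16.4 ± 7.76 CPM in morpholino libraries and 28.1 ± 13.5 CPM in controls (SD, n = 3 each), with a log2 fold change of -0.77 ± 0.98 (SE; edgeR adjusted p = 0.9999). The direction was negative in each of the 16 alternatives run, from -1.12 to -0.39, and none of these called it.

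In the prostanoid branch, ptgs1 codes for the cyclo-oxygenase that most tissues use at all times, and ptgs2a and ptgs2b code for the inducible cyclo-oxygenase, which zebrafish carry as a duplicated pair. ptgs1 lies on the plus strand of chromosome 5 at 64900223 to 64946436 (ENSDARG00000052148). Levels were 0, 8.25 and 24.2 CPM in morpholino replicates 1 to 3, against 16.2, 30.0 and 25.8 CPM in control replicates 1 to 3. Morpholino replicate 3 was above control replicate 1 and the other morpholino libraries were below every control. The means were 10.8 ± 12.3 CPM in morpholino libraries and 24.0 ± 7.08 CPM in controls (SD, n = 3 each). The log2 fold change of -1.13 ± 1.33 (SE; edgeR adjusted p = 0.9999) was the most negative of the 6 tested members. It was negative in each of the 16 alternatives run, from -2.46 to -0.58, and none of these called it. The value nearest 0 was the one without morpholino replicate 1, and the most negative was the one without morpholino replicate 3. The first 330 bases of ptgs1 overlap LHX6 on the opposite strand, which had no count in any library.

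ptgs2a lies on the minus strand of chromosome 2 at 20916497 to 20923864 (ENSDARG00000004539). Levels were 0, 25.0 and 28.2 CPM in morpholino replicates 1 to 3, against 21.6, 38.6 and 10.8 CPM in control replicates 1 to 3. Apart from morpholino replicate 1, the morpholino libraries lay inside the range of the controls. The log2 fold change was -0.40 ± 1.26 (SE; edgeR adjusted p = 0.9999), and its 16 alternatives ran from -1.29 with the neutrophil marker level as covariate to 0.17 without control replicate 2, of which 13 were negative.

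ptgs2b lies on the minus strand of chromosome 20 at 34121818 to 34127415 (ENSDARG00000010276). Levels were 0, 27.5 and 15.7 CPM in morpholino replicates 1 to 3, against 0.709, 30.2 and 20.6 CPM in control replicates 1 to 3. It was near 0 in both replicates 1, which also had the lowest mpx level of their groups. Replicate 1 was the lowest of each group for alox12, ptgs1 and the macrophage and thrombocyte list sums too. It was the highest of each group for the erythroid sum. What set these patterns was not tested. The log2 fold change was -0.24 ± 1.5 (SE; edgeR adjusted p = 0.9999), and of its 16 alternatives, which ran from -1.10 to 0.47, 13 were negative.

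The balance within the duplicated pair differed between libraries of 1 group. The share of ptgs2b in the counts of ptgs2a and ptgs2b was 52.3% (95% Wilson interval 48.2% to 56.4%) in morpholino replicate 2 and 35.8% (31.5% to 40.3%) in morpholino replicate 3, and morpholino replicate 1 had no count of either. In control replicates 1 to 3 it was 3.17% (1.46% to 6.75%), 43.9% (39.9% to 48.1%) and 65.6% (58.7% to 72.0%). The intervals, which cover counting error only, are narrow beside the distance between the 3 controls, and the morpholino values lay inside the range of the controls. The genomic setting of the pair is shared as well: the start of ptgs2a is separated by 2034 bases from pla2g4aa on the opposite strand, and the start of ptgs2b by 2049 bases from pla2g4ab. Each of these neighbours codes for a cytosolic phospholipase A2, the enzyme type that releases arachidonic acid. pla2g4aa had 42, 29 and 61 counts in morpholino libraries, against 35, 0 and 35 in controls, and pla2g4ab had 0, 87 and 18 counts, against 9, 61 and 53. As for ptgs2b, the fewest counts of pla2g4ab were in replicate 1 of each group.

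**Figure D3:**
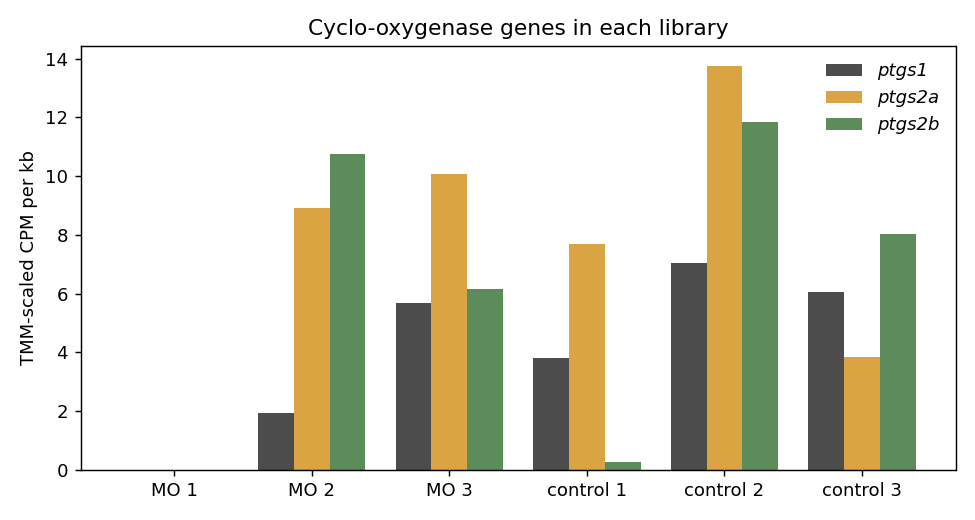
Levels of ptgs1, ptgs2a and ptgs2b in TMM-scaled CPM per kb of gene length (vertical axis) in the 3 znf711 morpholino (MO) and the 3 control libraries, 1 bar per gene. Morpholino replicate 1 has no count of any of the 3, and ptgs2b is nearly absent from control replicate 1.

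ptges codes for prostaglandin E synthase, which turns prostaglandin H2 into prostaglandin E2. It lies on the plus strand of chromosome 5 at 33339762 to 33347993 (ENSDARG00000020136). It had 0, 1 and 3 counts in morpholino replicates 1 to 3, against 0, 12 and 0 in control replicates 1 to 3. Only control replicate 2 had more than 3 counts, and the gene was too low for the edgeR filter. The difference of mean log2(CPM + 1) was -0.27, with p = 1 in an exact two-sided permutation test.

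**Figure D4:**
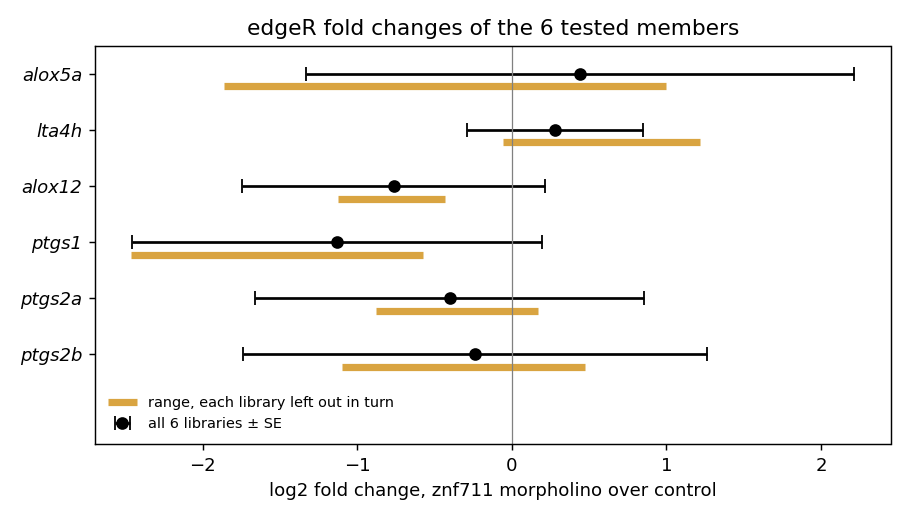
log2 fold change of znf711 morpholino over control (horizontal axis) for the 6 members tested by edgeR. Points and black bars give the value ± SE from all 6 libraries, and the coloured bars give the range when each library was left out in turn. The coloured bars of alox12 and ptgs1 stay below 0, and those of the other 4 cross it.

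The genes whose levels were most like those of a member were found by Pearson's r of log2(CPM + 1) over the 6 libraries, among 12438 tested Ensembl genes, as a description. For lta4h these were gadd45ga (r = 0.983), s100a1 (0.971) and nedd4a (0.968), and 8 genes had r above 0.95. For alox12 they were cldn11b (0.993), rabep2 (0.989) and si:dkey-172m14.1 (0.988), and 67 genes had r above 0.95. For alox5a they were gpr84, rnf24 and mknk2b (each 0.998). For ptgs1 they were slc35e1 (0.995), tpcn2 (0.994) and ada2a (0.994), for ptgs2a they were atm (0.999), map3k7 (0.998) and il21r.1 (0.997), and for ptgs2b they were ethe1 (0.995), plpp1a (0.992) and cd28 (0.992). lta4h and alox5a were entered by their named rows, which held 10.2% to 47.2% and 0% to 38.3% of the combined reads, depending on the library. The genes most like their summed reads were not sought and may be others. The members at 0 in morpholino replicate 1 share that library's many zeros with other genes, and 117 genes for alox5a, 236 for ptgs2b, 354 for ptgs1 and 540 for ptgs2a had r above 0.95. The genes named for each member were chosen by r over all 6 libraries, so a high r over 4 of these was partly set by that choice. Without the 2 libraries farthest from the median of the member, r was 0.989 for alox5a with gpr84, 0.973 for lta4h with gadd45ga and 0.992 for alox12 with cldn11b, over 4 libraries. With the gene named first it was 0.920 for ptgs1 (slc35e1), 0.945 for ptgs2a (atm) and 0.918 for ptgs2b (ethe1). The lowest of each member's 3 genes was 0.771 for ptgs1 (ada2a), 0.799 for ptgs2b (plpp1a) and 0.846 for ptgs2a (il21r.1). It was 0.868 for lta4h (s100a1), 0.959 for alox5a (mknk2b) and 0.966 for alox12 (si:dkey-172m14.1).

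A wider list of 68 genes of the pathway was read beside the members: phospholipases A2, other lipoxygenases, synthases, breakdown enzymes, transporters and receptors. Of these, 55 were found by name, 18 of the 55 had no count in any library, and 23 were tested. Unnamed models on alternate scaffolds were looked for only at the members. For the listed genes and the cell type markers, a named row at or near 0 thus need not mean that the gene had no reads. The edgeR test called 0 of the 23 and DESeq2 0, and 0 had an unadjusted p under 0.05. Of the 23, 15 had a positive and 8 a negative log2 fold change, with a median of 0.20 beside -0.12 over all rows. The groups did not overlap in 1 of the 23, beside 7.44% of all rows. That gene was ptgr2, a prostaglandin reductase named because of this count, at 47.2, 26.3 and 22.8 CPM in morpholino libraries, against 9.10, 14.8 and 16.8 CPM in controls (log2 fold change 1.24 ± 0.95, SE, n = 3 each; edgeR adjusted p = 0.9999).

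Among enzymes that release or inactivate lipids upstream, pla2g7, which codes for the hydrolase of platelet-activating factor, had 51.0, 62.2 and 121 CPM in morpholino replicates 1 to 3, against 27.3, 69.7 and 44.4 CPM in control replicates 1 to 3. The lysosomal phospholipase gene pla2g15 had 0, 43.9 and 117 CPM, against 25.9, 76.6 and 65.9 CPM. The groups overlapped in both. Of the other lipoxygenases, alox5b.3 had 0, 18.2 and 7.67 CPM in morpholino libraries, against 16.9, 19.2 and 35.6 CPM in controls, with a log2 fold change of -1.45 ± 1.36 (SE, n = 3 each; edgeR adjusted p = 0.9999). Its neighbours in name alox5b.1 and alox5b.2 had no count in any library, and reads of near-identical copies may have been split or lost among the 3.

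In the branch toward the cysteinyl leukotrienes, ltc4s, which codes for leukotriene C4 synthase, had no count on its named row in any library. mgst3b, a microsomal glutathione transferase of the same family, had 20.4, 67.2 and 21.6 CPM in morpholino libraries, against 112, 87.2 and 44.7 CPM in controls (log2 fold change -1.16 ± 0.67, SE, n = 3 each; edgeR adjusted p = 0.9999). Its partner mgst3a was at 56.9, 20.1 and 7.67 CPM, against 26.1, 15.1 and 31.8 CPM. The groups overlapped in both.

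Among the prostanoid synthases, ptges3b, which codes for the co-chaperone p23 that is also called cytosolic prostaglandin E synthase, was the most abundant listed gene. It had 404, 427 and 289 CPM in morpholino libraries, against 295, 388 and 299 CPM in controls, a log2 fold change of 0.19 ± 0.42 (SE, n = 3 each; edgeR adjusted p = 0.9999). In the same libraries ptges was near 0. The carbonyl reductase gene cbr1l had 96.1, 82.9 and 48.9 CPM, against 13, 65.8 and 49.8 CPM. Of the breakdown enzymes, ephx2, an epoxide hydrolase, had 0, 58.7 and 145 CPM, against 15.0, 44.0 and 8.16 CPM, and ptgr1, which acts on leukotriene B4 and prostaglandins, had 29.5, 27.0 and 16.4 CPM, against 19.0, 19.3 and 43.4 CPM.

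The receptor of leukotriene B4, ltb4r, was the most abundant receptor of the list. It had 20.9, 114 and 239 CPM in morpholino replicates 1 to 3, against 29.1, 120.5 and 198 CPM in control replicates 1 to 3, and the log2 fold change was 0.11 ± 0.82 (SE, n = 3 each; edgeR adjusted p = 0.9999). Like mpx and the macrophage and thrombocyte list sums, ltb4r was lowest in replicate 1 of each group. The second receptor type, ltb4r2a and ltb4r2b, had no count on its named rows in any library. Of the receptors and carriers of prostanoids, ptger2a had 0, 0 and 7.67 CPM in morpholino libraries, against 1.30, 5.04 and 0.163 CPM in controls, and slco2a1 had 0, 0 and 19.8 CPM, against 0, 3.57 and 10.3 CPM.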

How the data were processed

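Per the file headers, the authors deposited raw counts of reads for each gene in 1 table per library. The submitters' processing notes name the build GRCz11 and, without roles, HISAT2 2.0.5, Trimmomatic, HTSeq, DESeq2 1.16.1 and edgeR. How strand and multiply mapped reads were handled was not given in the sources used here, so counts of near-identical copies are uncertain. FPKM values deposited by the authors in the same tables were used only beside the order of the members' levels. The test was that of edgeR 4.0.16 in R 4.3.3: filterByExpr with a minimum count of 10, TMM, robust quasi-likelihood fit with the group as the only term, and Benjamini-Hochberg adjustment over all 16637 rows with a threshold of 0.05. Fold changes are morpholino over control. Their SE is approximate: the size of the fold change over the root of edgeR's F. Members below the filter were compared by an exact permutation test on log2(CPM + 1). Alternatives were DESeq2 1.42.0, limma-voom 3.58.1, other scalings and filters, left-out libraries, a replicate block, a neutrophil marker covariate and sums with models on alternate scaffolds. The code was tested on simulated data, with a pass mark only for a spread far smaller than that of these data. That test therefore does not show how large a change could be found here. The members and lists were chosen with earlier results of these data known. All 8 members are named, and of the wider list the 2 most abundant tested genes of each role and, for each tested member, the 3 most similar genes. Any other gene was chosen after its values were seen.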

Additional observations from a re-analysis of the deposited data

How the results depend on the processing

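The 8 members had 123 alternative values: 104 had the direction first given, 19 the opposite one, and none was called. All reuse the same 6 libraries, so they are not separate evidence. Some could not turn: the block leaves the mean difference of alox5ap and ptges unchanged, and the model summed with ptges had no count. alox12 and ptgs1 had no opposite value. The number of rows called, 0, was 2 with no filter on low counts and 12 with DESeq2, and 0 to 2 when each library was left out (1 without control replicate 1, 2 without morpholino replicate 3). The direction turned for alox5a with a replicate block (-1.14), with the neutrophil marker level as covariate (-0.86) and with limma-voom (-0.69). It turned for ptgs2a without both replicates 1 (0.10) and for ptgs2b with limma-voom (0.26). For alox5ap it turned with no filter (-0.089), without both replicates 1 (-0.11) and with the models on an alternate scaffold (-0.35). These alox5ap values are edgeR fold changes, while its first value was a difference of mean log2(CPM + 1), so unlike measures are compared. The tally of directions mixes both measures for alox5ap and ptges, and the runs that left out a library mix them for alox5ap. ptgs2a was more negative with the covariate (-1.29), the block (-1.16) and limma-voom (-1.02). Leaving out each library gave log2 values of -1.86 to 0.99 for alox5a, -0.75 to 0.95 for alox5ap, -0.059 to 1.22 for lta4h, -0.88 to 0.17 for ptgs2a, -1.10 to 0.47 for ptgs2b and -0.51 to 0.17 for ptges. With the models summed, in runs added after the data were examined, it gave -0.016 to 0.58 for alox5a, -0.95 to 0.22 for alox5ap and -0.35 to 0.45 for lta4h. The cause was not tested. The replicate numbers were not shown to pair the samples: deviations of same-numbered libraries correlated at 0.135, 0.112 and 0.0139, and morpholino replicate 3 was closest to control replicate 2. The block called 0 rows. The stricter filter left no test of alox5a, alox5ap or ptges. At the depth of morpholino replicate 1, a count of 0 allows 1.61 CPM for counting error alone. The controls had 16.2 to 30.0 CPM of ptgs1 and 10.8 to 38.6 CPM of ptgs2a, both at 0 in that library. Why 42.5% of the rows tested were at 0 there was not tested, and its zeros limit what can be said of every low member.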
